A study of Mus musculus with 2 samples.

Results

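The genes described here encode 10 receptor chains through which CD8 T cells sense cytokines other than IL-2: Il7r, Il15ra, Il4ra, Il21r, Il6ra, Il6st, Il27ra, Il10ra, Il10rb and Il18r1. They were taken by symbol from a table of 24013 genes, and a symbol with several transcript rows was represented by the most abundant of them on average. All 10 were found, and all 10 had a mean of at least 50 normalized counts, the minimum that 10518 genes passed and above which genes were compared. The study sequenced RNA of splenic CD8 T cells, isolated as naive cells, from C57BL/6 mice. The wild-type library came from mice aged 7 weeks and the deficient library, whose genotype is given as DGK{zeta}-/-, from mice aged 6 weeks. Both cultures had been stimulated for 24 hours with plate-bound antibodies to CD3 and CD28, so there was no unstimulated sample, and no cytokine is named among the agents added. The labels do not state how the Dgkz allele was made, which exons it lacks, or how many animals went into a library. There was 1 library per genotype, so no difference below has a replicate check or a p-value of its own, and each one compares these libraries rather than the genotypes.

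Most of these chains belong to a few shared designs. The alpha chains for IL-7, IL-4 and IL-21 pair with the common gamma chain (Il2rg), and the IL-15 alpha chain presents its cytokine to Il2rb and Il2rg. The chains for IL-6 and IL-27 pair with gp130, the product of Il6st, and IL-10 binds Il10ra, which signals together with Il10rb. All of these act through Janus kinases (JAKs) and STAT transcription factors, whereas the IL-18 receptor, Il18r1 with Il18rap, belongs to the IL-1 receptor family and signals through MyD88 and IRAK kinases. In CD8 T cells IL-7 and IL-15 are known for survival and memory, IL-6, IL-21, IL-27 and IL-10 for signalling through STAT3, and IL-18 for interferon gamma production. DGKzeta removes diacylglycerol, a second messenger of the T cell receptor. The comparison describes which transcripts differed between a wild-type and a DGKzeta-deficient library.

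The promoter table held 7 of the 10 genes, with RefSeq sequences of build GRCm38.p6 that run from 250 bases before to 50 bases after an annotated start. The windows of Il15ra, which stood higher in the deficient library, and of Il6ra and Il6st, the chains of 1 receptor that stood lower together, are printed because those genes had the largest folds among the 7. Il15ra has 2 annotated starts, at chr2:11705043-11705342 and chr2:11705462-11705761 on the plus strand. Il6ra lies at chr3:89913147-89913446 on the minus strand and Il6st at chr13:112463820-112464119 on the plus strand. Capitals mark matches, on either strand, to any of 4 motifs: TTCNNNGAA (STAT), TGANTCA (AP-1), CCGGAA (ETS) and GTAAACA (FOXO). No match overlapped another in these windows.
Il15ra, first start: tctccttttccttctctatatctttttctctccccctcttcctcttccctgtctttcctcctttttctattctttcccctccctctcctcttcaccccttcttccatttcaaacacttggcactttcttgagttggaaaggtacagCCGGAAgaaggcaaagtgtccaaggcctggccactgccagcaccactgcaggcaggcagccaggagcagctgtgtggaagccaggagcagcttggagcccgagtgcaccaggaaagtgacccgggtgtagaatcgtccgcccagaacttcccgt
Il15ra, second start: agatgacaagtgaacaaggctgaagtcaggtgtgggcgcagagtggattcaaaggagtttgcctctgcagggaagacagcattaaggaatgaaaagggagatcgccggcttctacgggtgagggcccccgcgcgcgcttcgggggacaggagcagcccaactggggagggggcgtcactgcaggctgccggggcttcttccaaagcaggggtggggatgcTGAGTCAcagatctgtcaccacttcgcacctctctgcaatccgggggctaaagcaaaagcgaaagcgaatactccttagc
Il6ra: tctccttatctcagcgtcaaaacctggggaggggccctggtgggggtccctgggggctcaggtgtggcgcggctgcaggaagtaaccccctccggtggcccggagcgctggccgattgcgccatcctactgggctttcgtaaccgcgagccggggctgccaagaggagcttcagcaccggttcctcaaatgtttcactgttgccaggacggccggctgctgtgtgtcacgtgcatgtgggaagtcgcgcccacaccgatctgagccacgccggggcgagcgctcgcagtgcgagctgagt
Il6st: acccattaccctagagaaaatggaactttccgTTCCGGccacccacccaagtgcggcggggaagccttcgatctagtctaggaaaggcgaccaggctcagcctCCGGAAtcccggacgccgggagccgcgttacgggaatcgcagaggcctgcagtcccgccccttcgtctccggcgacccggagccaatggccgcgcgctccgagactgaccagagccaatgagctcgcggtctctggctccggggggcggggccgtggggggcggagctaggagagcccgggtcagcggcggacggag
The first Il15ra window held 1 match to CCGGAA and the second held 1 match to TGANTCA. The Il6st window held 2 matches to CCGGAA, and none of the 4 motifs was found in the Il6ra window. Over all 32851 promoter windows of this length, CCGGAA was present in 14.9%, TGANTCA in 7.81%, TTCNNNGAA in 8.30% and GTAAACA in 3.65%. A match describes letters in a window, and factor binding was not measured.

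Each value below is a normalized count, the read count divided by a size factor per library, and a fold is the ratio of normalized counts. The interval after a fold is an exact 95% counting interval (Clopper-Pearson). It covers counting error only, not variation between mice or cultures, and without molecular identifiers some reads may be copies of 1 molecule. The log2 ratio adds a pseudocount of 10 to both libraries, which understates the change of low genes, and a gene is called at least 2-fold different where that ratio reaches 1 or -1. Depth was 37211969 reads in the wild-type and 13464169 in the deficient library, so the latter sets the precision. Dgkz itself had 6714 and 2591 normalized counts, a 2.59-fold decrease (2.46 to 2.74). Xist had 14 and 9206, so by this marker the libraries differed in sex in addition to age, and genotype, sex and age cannot be told apart for any value here.

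The receptor genes lay inside the 2-fold limits. Of the 10 members, 0 reached 2-fold in the upward direction (1.30% of all compared genes did) and 0 in the downward direction (1.29%), where 2.60% of all compared genes were called in either direction. That split over all genes was 137 higher and 136 lower, and 115 and 179 when both libraries were scaled to equal totals. The median log2 ratio of the members was -0.035, against 0.055 over all compared genes, with 5 members above 0 and 5 below, and it was 0.032 when a minimum mean of 200 left out Il18r1. At a limit of 1.5-fold, a log2 ratio of 0.58 or -0.58 after rounding, 2 members were called, both higher, beside 9.59% of all compared genes (4.53% higher, 5.07% lower). Those 2 were Il15ra and Il10ra, while Il6ra and Il6st, at -0.57 and -0.58, fell just short of the limit with the pseudocount of 10. Their folds without it, 0.665 and 0.666, reached 1.5-fold lower, so the split of 2 higher and 0 lower depends on the pseudocount. The count was 4, with Il6ra and Il6st included, when the pseudocount was 1 or when totals were equal. It was also 4 when log2 ratios were recentred on the median of all compared genes. The share of all compared genes at 1.5-fold was computed for the reported setting only, so none stands beside the count of 4. The counting interval of the fold excluded 1 for 8 of the 10 members, 4 above and 4 below, and it did so for 57.5% of all compared genes (35.8% above and 21.7% below).

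**Figure D1:**
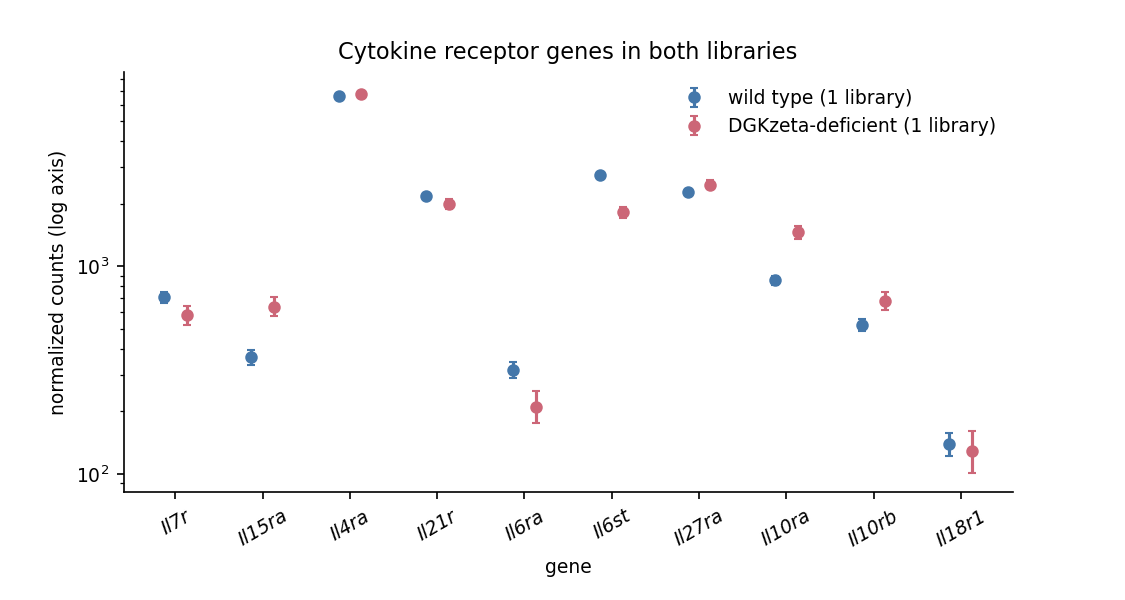
Normalized counts (log axis) of the 10 receptor genes in the wild-type library and the DGKzeta-deficient library, 1 point per library. Bars are exact 95% Poisson counting intervals. Il15ra, Il10ra and Il10rb stand higher and Il6ra and Il6st lower in the deficient library, while the points of Il4ra lie at 6625 and 6776.

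Among the chains that use the common gamma chain, Il15ra differed most, and Il4ra and Il21r differed little. Il7r, the alpha chain of the receptor for IL-7, had 708 normalized counts in the wild-type and 581 in the deficient library. That is 1.22-fold lower (1.08 to 1.38), on 1215 and 339 reads, and 14.9% of compared genes had a log2 ratio as low as its -0.28. Il15ra, which binds IL-15 and presents it to neighbouring cells, was read at 364 and 640 normalized counts. It was 1.76-fold higher (1.54 to 2.0), on 624 and 373 reads, and its log2 ratio of 0.80 was reached by 2.16% of compared genes. All 9 transcript rows of Il15ra stood higher in the deficient library, with log2 ratios from 0.78 to 0.83. Reads shared between these rows appear in several of them, so they are not separate measurements.

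Il4ra, which serves IL-4 and IL-13, was read at 6625 and 6776 normalized counts. It was 1.02-fold higher (0.986 to 1.06), and on 11362 and 3951 reads it has the narrowest interval of the 10. Its log2 ratio of 0.03 became -0.06 at equal totals and -0.02 after recentring, so its direction depends on the scaling. Il21r, the receptor for a cytokine of helper T cells, had 2176 and 2001 normalized counts and was 1.09-fold lower (1.02 to 1.16). Il4ra and Il21r are neighbouring genes, and their ratio of normalized counts was 3.05 in the wild-type and 3.39 in the deficient library, a change of 1.11-fold (1.03 to 1.20).

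The chains shared with these receptors were level. Il2rg, the common gamma chain, was read at 6469 and 6342 normalized counts, a fold of 0.980 (0.944 to 1.02). Il2rb, the beta chain used by IL-2 and IL-15, was read at 9053 and 8954, a fold of 0.989 (0.958 to 1.02). Il2ra, the high-affinity chain for IL-2 only, was read at 10846 and 14174 and was 1.31-fold higher (1.27 to 1.34). Il13ra1, the partner of Il4ra in the alternative IL-4 receptor, had 8 and 2 reads, too few for a comparison.

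Ratios taken within a library do not depend on how the libraries were scaled, and 11 such pairs were computed, chosen with the values of the genes known. Il15ra relative to Il2rb stood at 0.0402 in the wild-type and 0.0714 in the deficient library, 1.78-fold higher (1.55 to 2.03). Il7r relative to Il2rg stood at 0.110 and 0.0917, 1.19-fold lower (1.05 to 1.36). Il15ra relative to Il7r moved further than either against its partner chain, from 0.514 to 1.10, 2.14-fold higher (1.79 to 2.56). That pair sets a higher gene against a lower one, so its shift only combines folds already given. The ratios of Il4ra and Il21r to Il2rg changed by 1.04-fold (0.990 to 1.10) and 0.938-fold (0.869 to 1.01).

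**Figure D2:**
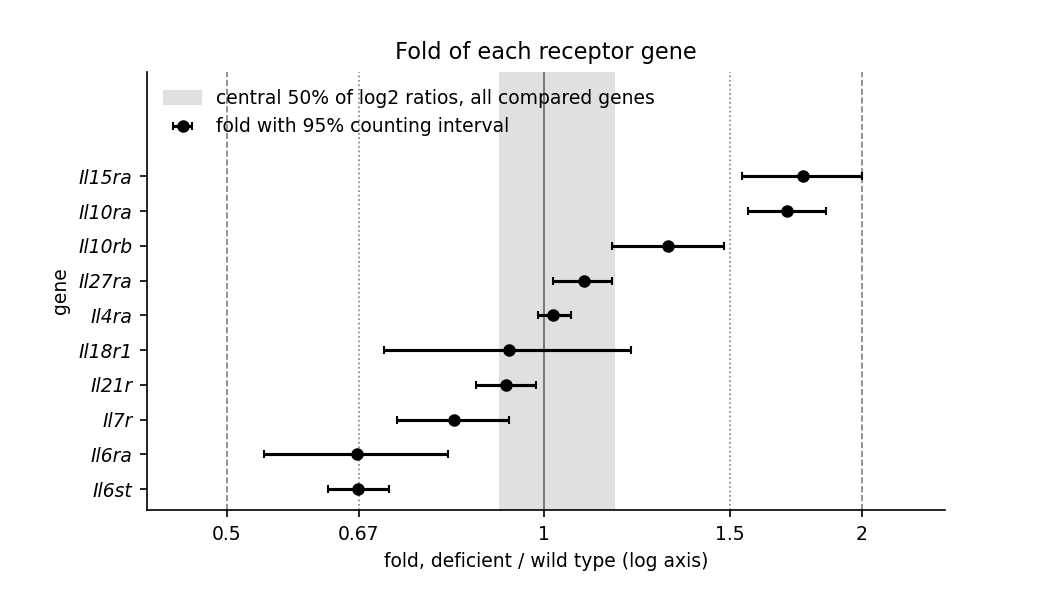
Fold of each receptor gene, deficient over wild type (log axis), with exact 95% counting intervals, ordered by log2 ratio. The grey band marks the central 50% of log2 ratios over all compared genes, and dotted and dashed lines mark 1.5-fold and 2-fold. The points of Il15ra and Il10ra lie beyond the 1.5-fold line at 1.76 and 1.70, and those of Il6ra and Il6st lie on it at 0.665 and 0.666.

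Both chains of the IL-6 receptor were lower by the same factor. Il6ra, the chain that binds IL-6, had 317 and 211 normalized counts and was lower by 1.5-fold (1.23 to 1.84), on 544 and 123 reads. Il6st, encoding gp130, the signalling chain for IL-6, IL-27, LIF and oncostatin M, was read at 2742 and 1826. It was 1.5-fold lower as well (1.40 to 1.61), on 4703 and 1065 reads. The ratio of Il6ra to Il6st was 0.116 and 0.115, a change of 0.998-fold whose interval (0.805 to 1.23) leaves room for unequal changes of up to 1.24-fold. Log2 ratios as low were found in 5.46% of compared genes for Il6ra and 5.12% for Il6st.

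Il27ra, the private chain of the IL-27 receptor, did not follow gp130. Its normalized counts were 2275 and 2478, 1.09-fold higher (1.02 to 1.16), with a log2 ratio of 0.12 that was 0.03 at equal totals. The ratio of Il27ra to Il6st therefore stood at 0.829 in the wild-type and 1.36 in the deficient library, 1.64-fold higher (1.49 to 1.79). The ligands that share gp130 were measured in part. Lif had 2081 and 3198 normalized counts, 1.54-fold higher (1.45 to 1.63), and Osm, encoding oncostatin M, had 289 and 614, 2.13-fold higher (1.85 to 2.44). Their own receptor chains were near absent, Lifr with 7.58 and 1.71 normalized counts and Osmr with 8.16 and 0.

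Both chains of the IL-10 receptor were higher, Il10ra more than Il10rb. Il10ra, which binds IL-10, was read at 856 and 1456 normalized counts and was 1.70-fold higher in the deficient library (1.56 to 1.85), on 1468 and 849 reads. A log2 ratio as high as its 0.76 was found in 2.56% of compared genes. Il10rb, a chain also used by the receptors for IL-22 and interferon lambda, was read at 521 and 683. It was 1.31-fold higher (1.16 to 1.48), and 9.94% of compared genes reached its log2 ratio of 0.38. The ratio of Il10ra to Il10rb stood at 1.64 and 2.13, 1.30-fold higher (1.12 to 1.51). The widest shift between any of the 11 pairs was that of Il10ra to Il6st, from 0.312 to 0.797, 2.55-fold higher (2.29 to 2.85). These chains belong to different receptors, and the shift only combines the higher fold of Il10ra with the lower fold of Il6st. IL-10 and IL-6 receptors both activate STAT3, whose own gene was read at 5087 and 5654 normalized counts.

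**Figure D3:**
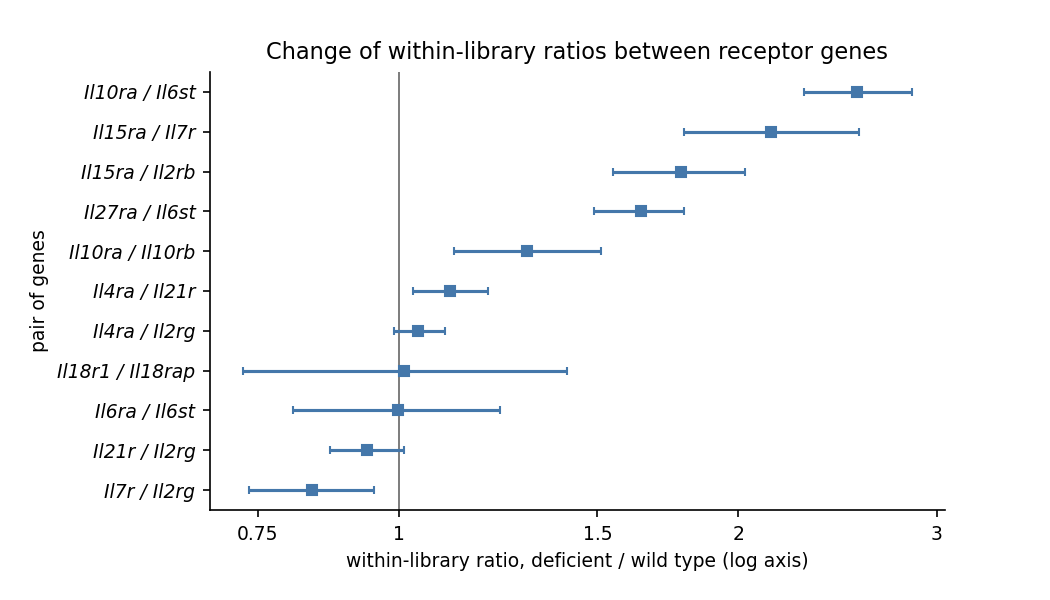
Change of the within-library ratio of normalized counts between 2 receptor genes, deficient over wild type (log axis), for 11 pairs. Bars are exact conditional 95% counting intervals. The ratio of Il10ra to Il6st changed by 2.55-fold and that of Il6ra to Il6st by 0.998-fold.

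Il18r1, the IL-18-binding chain, was read at 139 and 129 normalized counts, a fold of 0.927 whose interval (0.705 to 1.21) includes 1. It rested on 238 and 75 reads, the fewest of the 10, and its 3 transcript rows gave log2 ratios from -0.12 to -0.07. Its partner Il18rap was read at 289 and 264, a fold of 0.913 (0.757 to 1.10), and the ratio between both chains was 0.480 and 0.487. A difference in this receptor below about these limits was not detectable at this depth. Of the 11 compared genes of IL-18 receptor signalling, 0 were called at 2-fold, beside 2.60% of all compared genes. Irak2, a kinase of the pathway, had the largest log2 ratio at 0.72, followed by Traf6 (0.43), a ubiquitin ligase, its partner Tab2 (0.37) and Il18bp (-0.30), which encodes a secreted IL-18 inhibitor.

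To compare genes with each other, normalized counts were divided by transcript length in kilobases (GENCODE M21, matched by RefSeq accession). This level is the source of the order that follows, and its intervals cover counting error only. In the wild-type library Il4ra was highest at 1260 counts per kilobase, followed by Il21r (871) and Il27ra (854), whose intervals overlapped. Then came Il6st (316), Il10rb (281), Il10ra (245), Il15ra (227) and Il7r (200). In that run the intervals of Il10ra and Il15ra overlapped, as did those of Il15ra and Il7r. Il6ra (94.9) and Il18r1 (33.4) were lowest.

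In the deficient library Il4ra was again highest at 1289 counts per kilobase, ahead of Il27ra (930) and Il21r (801), which no longer overlapped. Il10ra (416), Il15ra (400) and Il10rb (369) overlapped with each other and all stood above Il6st (210), which had been the highest of these 4 in the wild-type library. Il7r (164), Il6ra (63.1) and Il18r1 (30.9) kept the lowest places. For scale, Il2rg stood at 3874 and 3798 counts per kilobase, Il2rb at 2159 and 2135, and Il2ra at 2458 and 3213.

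**Figure D4:**
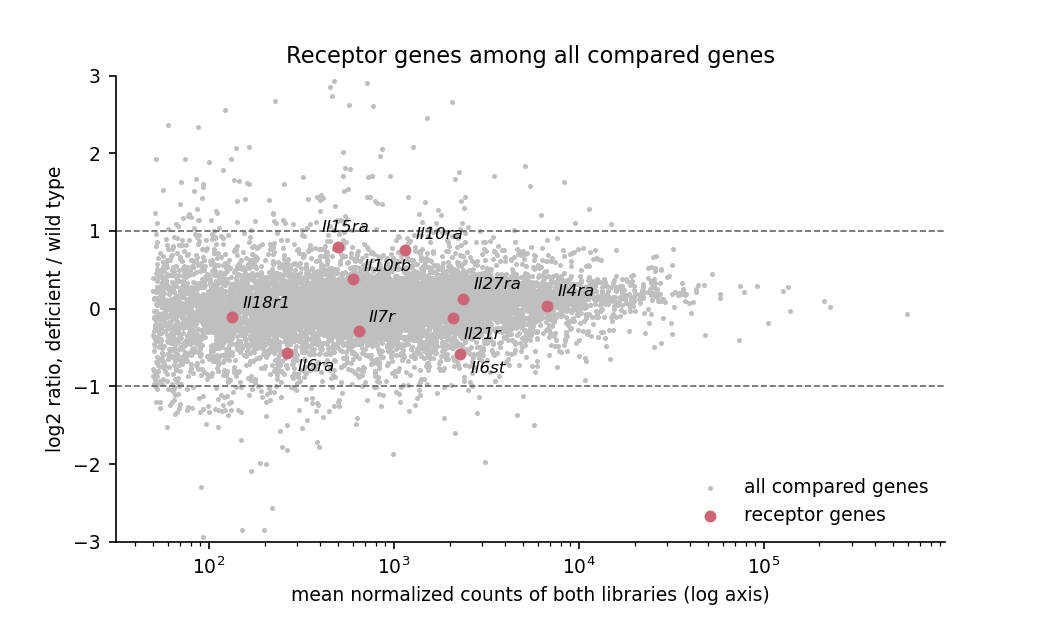
Log2 ratio, deficient over wild type, against the mean of both libraries (log axis) for all 10518 compared genes in grey and the 10 receptor genes in colour. Dashed lines mark 2-fold, and 11 genes lie outside the plotted range. All 10 receptor genes lie between -0.58 and 0.80.

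Genes around the receptors were taken from 8 lists, chosen with earlier results of these data known, which held 94 compared genes apart from the members. Of these, 6 were called higher and 1 was called lower at 2-fold, 7.45% in all beside 2.60% of all compared genes. Because of how the lists were chosen, the difference between these shares is not a test of enrichment. The called genes include Il2, which binds none of the members. The count of 7 was 3 with a pseudocount of 50 and 4 at a minimum mean of 200. The split depends on the scaling, with 3 higher and 2 lower at equal totals and 4 higher and 1 lower after recentring. At equal totals Osm (0.98), Pim1 (0.92) and Gadd45g (0.96) lost their calls and Bcl6 (-1.02) gained one, and after recentring Pim1 (0.95) and Gadd45g (0.99) lost theirs. Of the 24 further receptor chains, 15 were compared and 0 called, with a median log2 ratio of 0.15. Ifngr2, the signalling chain for interferon gamma, was highest at 0.83 (204 and 370 normalized counts), followed by Il12rb2, a chain of the IL-12 receptor, at 0.51. Il2ra stood at 0.39, Il20rb, a chain of receptors for the IL-20 family, at 0.33, and Il12rb1, the other IL-12 chain, at 0.27. The fold of Il20rb (1.29, 0.923 to 1.77) has an interval that includes 1. Of the 15 compared chains, 8 were above 0 and 7 below.

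Several cytokines that bind the members had few reads. Il7, Il15, Il4, Il21, Il6, Il10, Il18 and Il27 each had at most 7 reads in the wild-type and 5 in the deficient library, and Ebi3, the partner subunit of IL-27, had 14 and 5. Of the 19 listed ligands, 4 were compared. Il2, from 162 to 1274 normalized counts, and Osm were called higher, beside 1.30% of all compared genes. Lif had a log2 ratio of 0.62 and Clcf1, a cytokine of the gp130 family, one of -0.09.

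The kinases and STAT factors had a median log2 ratio of 0.20, with 0 of 11 called beside 2.60% of all compared genes. Jak2 and Jak3 stood apart in opposite directions. Jak3, the kinase bound to the common gamma chain, was read at 2210 and 1297 normalized counts and was 1.70-fold lower (1.58 to 1.85), while Il2rg was level. Jak2, used by the receptors for IL-6, IL-12 and interferon gamma, was read at 3220 and 5831 and was 1.81-fold higher (1.73 to 1.89). Stat5a, a factor activated by IL-2, IL-7 and IL-15, had a log2 ratio of 0.46 and Stat2 one of 0.28.

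Of the 18 feedback inhibitors, 1 was called higher, 0 lower and 17 not called, with a median log2 ratio of 0.08. The called gene was Usp18, an inhibitor of type I interferon receptor signalling, at 220 and 607 normalized counts, 2.75-fold higher (2.38 to 3.19). Cish, induced by STAT5, had a log2 ratio of 0.51, Socs5 one of -0.42 and Socs2 one of 0.30. Of 14 compared genes that cytokines are known to induce, 3 were called higher, 0 lower and 11 not called, with a median of 0.08. The shares over all compared genes were 1.30% higher and 1.29% lower, for this list and the one before. The called genes of this list were Pim1, a survival kinase (2973 and 5987 normalized counts, 2.01-fold, 1.93 to 2.10), Gadd45g (2.21-fold, 1.67 to 2.93) and the cell cycle inhibitor gene Cdkn1a (2.58-fold, 1.82 to 3.65). The calls of Pim1 and Gadd45g, at log2 ratios of 1.01 and 1.04, were lost under both of those scalings. Eomes, a transcription factor of effector and memory CD8 cells, had a log2 ratio of 0.95.

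On the list of regulators of Il7r transcription, 11 genes were compared, with a median log2 ratio of -0.30. Of these, 8 were below 0 and 3 above, where 4400 of all 10518 compared genes were below 0. At 2-fold, 1 was called lower, beside 1.29% of all compared genes. That gene was Klf2, a transcription factor of quiescent T cells, with 280 and 58.3 normalized counts and a 4.81-fold difference (3.39 to 7.03). Ets1 (-0.60), Foxo1 (-0.55), which activates Il7r, and Tcf7 (-0.50) had log2 ratios of greater size than that of Il7r itself. Gfi1, among those above 0, stood at 0.35. The part of these genes in the value of Il7r was not tested. Of 11 genes of receptor shedding and trafficking 0 were called, beside 2.60% of all compared genes, with a median of -0.03. Cblb, a ubiquitin ligase, had a log2 ratio of -0.55, Rhbdf2 -0.45, Cbl -0.37 and Adam10, a protease that sheds the IL-6 receptor, -0.36. On this list 6 genes were below 0 and 5 above, and Adam17, another protease, went the other way at 0.21.

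**Figure D5:**
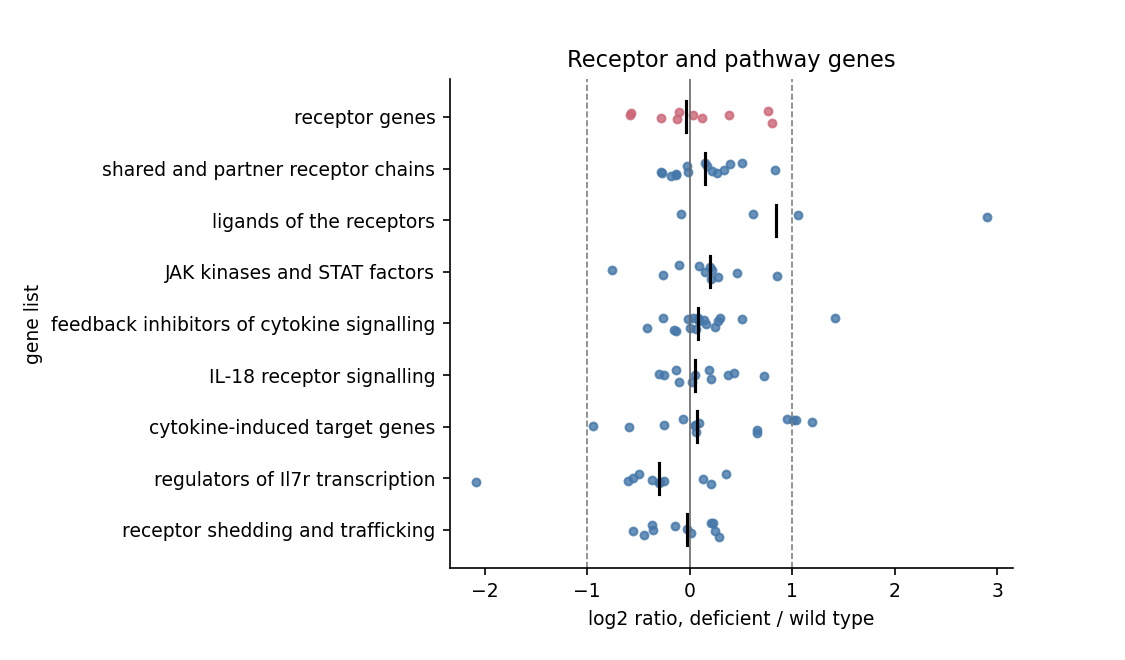
Log2 ratios, deficient over wild type, of the 10 receptor genes and of the compared genes of 8 lists, 1 point per gene. Black bars are medians and dashed lines mark 2-fold. The receptor genes spread from -0.58 to 0.80 around a median of -0.035, and Il2 (2.90) and Klf2 (-2.09) lie farthest out among the lists.

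Marker genes of cells that could be present also differed between the libraries. The 7 CD8 T cell markers found of 9 listed all had log2 ratios below 0, where 4400 of all 10518 compared genes did. Cd8a had 13090 and 8455 normalized counts, while Lat was level at 6132 and 6116 (fold 0.997, 0.960 to 1.04). The median of this list was -0.48 and its summed level 43153 and 32283. Of 12 B cell markers 9 were compared, all 9 below 0 with a median of -0.77, and the 12 summed to 3232 and 2362, Cd74 alone to 1287 and 1252. The 9 NK and innate-like markers summed to 1090 and 804, and 8 of them were lower in the deficient library. Ncr1, Klrb1c and Klra8 were at 0 there, but had only 7, 9 and 2 reads in the wild-type library. Most of the sum came from Klrd1 and Klrk1. Klrd1 had 395 and 134 normalized counts, 2.95-fold lower (2.33 to 3.78), while Klrk1 had 587 and 633. The 10 myeloid markers found of 11 listed summed to 288 and 324. Of these, 2 were higher in the deficient library, Mpeg1 (127 and 185) and Fcgr3 (4.66 and 49.7), and 8 were lower, among them Cd68 (93.9 and 70.3), Itgam (15.7 and 1.71) and Lyz2 (7.58 and 1.71), with Cd14 and S100a9 at 0. The 5 CD4 and regulatory T cell markers summed to 2720 and 4437, of which Ctla4, also expressed by activated CD8 cells, made up 2209 and 4010. Cd4 itself had 171 and 53.2 normalized counts, 3.21-fold lower (2.22 to 4.82), Cd40lg had 20.4 and 5.14, Zbtb7b 57.1 and 48.0, and Foxp3 262 and 321. By sums, the deficient library had less of the CD8, B cell and NK lists and more of the myeloid and CD4 lists. The myeloid and CD4 sums went against most of their markers, as 8 of the 10 myeloid and 3 of the 5 CD4 markers were lower. Of the members, 4 had a fold interval below 1 (Il6ra, Il6st, Il7r and Il21r) and 4 above 1. The part of the markers in these values was not tested. In bulk RNA, fewer cells of a type and less RNA per cell cannot be told apart.

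In the authors' deposited table, none of the 10 members passed a test. Its log2 fold changes for the members named next were smaller in size than the log2 ratios above, and the authors' values were 0.49 for Il10ra (p = 0.0571), 0.46 for Il15ra (p = 0.0816), -0.41 for Il6st (p = 0.0944) and -0.30 for Il6ra (p = 0.258). The authors' deposited table gives -0.20 for Dgkz (p = 0.305), whose log2 ratio here was -1.37. The adjusted p in the authors' deposited table was 0.999 for each of the 10, and 0.999 was also the lowest over its 30433 rows with an adjusted p, Dgkz included. In GENCODE M21, exons of Il4ra, Il6ra and Il27ra overlap exons of genes on the opposite strand (Gm44876, Gm42809 and Palm3, the last by 2 bases), and 569 exon bases of Il10rb are shared with Gm21970 on the same strand. The kit does not mark strand, so reads of such pairs cannot be told apart.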

How the data were processed

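RNA of 2 CD8 T cell libraries, 1 per genotype, was prepared with Trizol and the NEBNext Ultra RNA kit, per the labels' protocols. The submitters' processing notes name STAR version 2, DESeq and build mm9, with no role or order. Which counter and annotation were used is not given in the sources used here. Normalized counts were deposited by the authors per RefSeq transcript row, as a never-negative signal. In both libraries 100% of values were whole multiples of 1 read (relative tolerance 0.0001), so whole reads were recovered, with size factors of 1.71 (wild type) and 0.583 (deficient). The authors also deposited log2 fold changes, p-values and a test score per row. The score was not used. Of the rows, 33017 were used and 1, with shifted values, was left out.

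Folds, log2 ratios (pseudocount 10, minimum mean 50) and exact counting intervals were computed with Python 3.11.15 and scipy 1.17.1, and were tested on simulated data first. The simulation held counting noise only and changes larger than 2-fold. It does not cover variation between mice or cultures, or smaller changes. With 0 residual degrees of freedom the quasi-likelihood test of edgeR could not be fitted to the reads, so it calls no genes here. TMM factors came from edgeR 4.0.16. Transcript lengths and exon overlaps came from GENCODE M21 and were not converted to mm9. The members and lists were chosen with earlier results of these data known. The rule names all members, Dgkz, the 4 genes per list farthest from a log2 ratio of 0, called genes, partner chains and the most abundant markers. Genes named outside it are Xist, Stat3, Lifr, Osmr, Bcl6, Gfi1, Adam17, Lyz2, other markers and the ligands with few reads.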

Additional observations from a re-analysis of the deposited data

How the results depend on the processing

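Alternatives to the pseudocount, the scaling, the transcript row and the expression minimum were tried. No member was called at 2-fold under any of the 10 alternatives. Changing the expression minimum leaves each log2 ratio as it is, so those settings could not have added a call. Members at least 1.5-fold different numbered 2 in the values reported and 3 with TMM factors. They numbered 4 with a pseudocount of 1, at equal totals and after recentring, since Il6ra and Il6st lie at that limit. The share over all compared genes at 1.5-fold was not computed for these alternatives. Pathway genes at least 2-fold different numbered 7, against 3 with a pseudocount of 50 and 4 at a minimum mean of 200. Of 70 member values under other settings, 67 stayed within their counting interval and 3 did not. Those 3 were Il4ra at equal totals (-0.06) and after recentring (-0.02) and Il27ra at equal totals (0.03). Only Il15ra and Il18r1 have several transcript rows, so for the other members the choice of row could not change the value. The 67 therefore include values that were fixed in advance. Only Il4ra changed sign. Over all compared genes, 273 were called, against 163 with a pseudocount of 50, 418 at a minimum mean of 10, 164 at 200 and 551 with no minimum. The 75 to 3951 deficient reads per member limit the precision. No paired analysis was possible because there is 1 library per genotype, and for the same reason no replicate could be left out.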
